A study of Homo sapiens with 6 samples.

Results

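HEG1 and the cerebral cavernous malformation (CCM) complex were followed as 7 genes in RNA sequencing of PC9OR cells. They are the receptor HEG1, the CCM proteins KRIT1, CCM2 and PDCD10, the kinase MAP3K3, and the transcription factors KLF2 and KLF4. All 7 symbols were found among the 60664 genes of the deposited count table, each in 1 row, and all 7 passed the filter on low counts that left 15900 tested genes. The set was selected on these same counts, that is with the difference between the si-GLMP and NC libraries in view: HEG1 as the receptor, the CCM proteins for their restraint of RhoA, and MAP3K3 with the KLF factors as the branch below. The values of the members in that contrast are therefore given as a description, without a test.

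PC9OR is a cell line labelled as lung cancer cells. The name contains that of PC9, a human lung adenocarcinoma line with an activating EGFR deletion. The control group, NC, held 3 libraries with the genotype Control, and the si-GLMP group held 3 libraries of cells in which GLMP, a lysosomal membrane glycoprotein gene, had been knocked down. The sources used here do not give the siRNA sequence, the time of harvest or any drug in the medium, and all 6 libraries came from this 1 line. The labels do not say whether replicates were separate cultures, so a p-value here reflects only how far these libraries scatter, and that scatter may be technical. These are bulk libraries, in which fewer cells of a type and less RNA per cell cannot be told apart.

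HEG1 is a heavily glycosylated, mucin-like transmembrane protein whose short cytoplasmic tail binds KRIT1. KRIT1, CCM2 and PDCD10 form a cytoplasmic complex, best known in endothelium, where loss of any of the 3 genes causes cavernous malformations of brain vessels. The complex is known to restrain RhoA and its kinase ROCK, and to hold back a kinase cascade from MAP3K3 through MAP2K5 and MAPK7 (ERK5) to the MEF2 factors, which switch on KLF2 and KLF4. The series title names the RhoA pathway among the effects of GLMP.

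Library totals ran from 19896875 to 22372878 counts. GLMP itself had 309, 344 and 347 counts in NC and 82, 61 and 65 after knockdown, with a log2 fold change (log2FC) of -2.25 ± 0.14 (SE), at an edgeR adjusted p of 1.16e-18; 17.5% of its exon bases overlap TMEM79 on the opposite strand. The groups differed widely, with 3712 of 15900 tested genes (23.3%) past an edgeR adjusted p of 0.05. NC replicate 2 stood apart: its mitochondrially encoded mRNAs took 8.73% of counts, against 5.18% to 6.55% in the other libraries. Epithelial genes were abundant, with KRT8 at 3354 ± 151 CPM (counts scaled to library size) and EPCAM at 459 ± 18.3 CPM in NC (SD, n = 3). Of 10 epithelial and lung markers 9 were tested, with 4 higher and 1 lower (55.6% called, against 23.3% of all tested genes). EPCAM (log2FC 0.30, edgeR adjusted p = 0.000294), CDH1 (0.30, 0.000358), CLDN4 (0.59, 1.32e-10) and ELF3 (0.79, 2.27e-10) were higher. KRT7 was lower (-0.27, edgeR adjusted p = 0.00105) and KRT8 was not called (-0.05, 0.672). CDH1, CLDN4, ELF3 and KRT7 were chosen after their values were seen. Of the lung markers, NAPSA had at most 13 counts in a library and NKX2-1 at most 6.

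HEG1 was the member that stood apart, and it was lower in every si-GLMP library than in any NC library. The 3 control libraries, in replicate order, held 927, 1222 and 1008 HEG1 counts and the 3 knockdown libraries 468, 396 and 398. Scaled by library size (TMM), these were 46.5, 59.8 and 44.7 CPM in NC, and 22.9, 18.7 and 19.3 CPM in si-GLMP. The lowest NC library was thus well above the highest si-GLMP library, and NC replicate 2 was the highest of all. The mean went from 50.4 ± 8.22 to 20.3 ± 2.27 CPM (SD, n = 3 each), 59.7% less, and the log2FC was -1.31 ± 0.10 (SE). From the lowest upward, that fold change was number 41 among the 15900 tested genes. NC replicate 2 had both the highest HEG1 level and the highest mitochondrial share, and without it the HEG1 log2FC was -1.17.

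HEG1 (ENSG00000173706) lies on the minus strand of chromosome 3, from 124965710 to 125055958 in GRCh38. Its 9156 exon bases in the annotation overlap no exon of another gene. The 250 bases before its RefSeq start are shown because HEG1 is the member with the large difference, together with those of KLF2 and KLF4, the transcription factors at the far end of the kinase cascade. RefSeq (GRCh38.p14) had promoters for all 7 members, 11 in all, each 250 bases before to 50 bases after a start. The windows are chr3:125055998-125056247 (minus strand) for HEG1, chr19:16324576-16324825 (plus strand) for KLF2 and chr9:107489770-107490019 (minus strand) for KLF4. Each is written 5′ to 3′ on the strand of its gene, and capitals mark a match to the MEF2 motif.
HEG1: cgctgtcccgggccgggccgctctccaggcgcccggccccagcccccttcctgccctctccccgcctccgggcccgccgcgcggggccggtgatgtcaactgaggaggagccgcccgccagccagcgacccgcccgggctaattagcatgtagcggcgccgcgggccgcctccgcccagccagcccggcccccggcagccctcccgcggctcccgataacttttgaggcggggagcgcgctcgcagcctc
KLF2: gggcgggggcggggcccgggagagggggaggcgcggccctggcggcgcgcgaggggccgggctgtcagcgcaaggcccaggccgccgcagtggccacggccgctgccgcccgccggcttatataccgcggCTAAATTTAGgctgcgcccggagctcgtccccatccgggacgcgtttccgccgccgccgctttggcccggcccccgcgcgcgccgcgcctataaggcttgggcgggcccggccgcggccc
KLF4: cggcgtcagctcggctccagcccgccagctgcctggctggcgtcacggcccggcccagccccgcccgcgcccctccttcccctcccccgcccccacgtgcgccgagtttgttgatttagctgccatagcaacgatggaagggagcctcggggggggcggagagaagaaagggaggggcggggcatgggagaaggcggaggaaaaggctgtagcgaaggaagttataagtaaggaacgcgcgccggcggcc

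KLF2 carried the single MEF2 match among the 11 promoters, CTAAATTTAG, whose first base lies at -120 from the start. The motif was searched on both strands, and 2.99% of the 35116 RefSeq promoters of this length held a match. CACCC, the core that Kruppel-like factors bind, was found on either strand in 8 of the 11 promoters, and in 59.9% of all promoters. These 8 were the promoters of KRIT1, CCM2, PDCD10 and MAP3K3, and the 2 windows of KRIT1 overlap and share matches. In the windows of HEG1, KLF2 and KLF4 CACCC did not occur. GGAATG (the TEAD core), TGANTCA (AP-1) and the CArG box of SRF had no match in any of the 11, against 14.0%, 7.71% and 1.29% of all promoters. The HEG1 promoter was 79.7% G and C and that of KLF2 80.7%, against a median of 58.7% over all promoters.

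**Figure D1:**
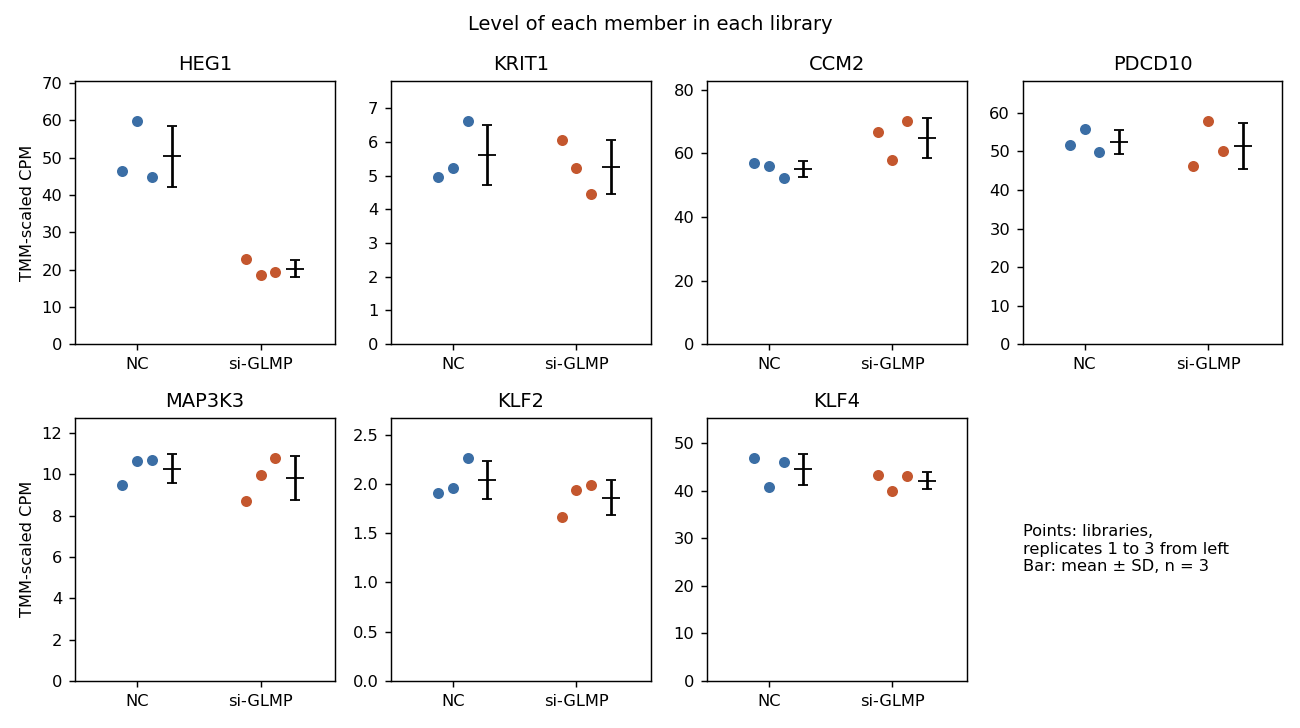
Level of each of the 7 members in TMM-scaled CPM (y axis, from 0) in the 3 NC and 3 si-GLMP libraries (points, replicates 1 to 3 from left), with mean ± SD beside them. HEG1 drops from between 44.7 and 59.8 to between 18.7 and 22.9 CPM, and the other panels show ranges that overlap, except CCM2.

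The genes of the 3 CCM proteins lay much closer to no difference. KRIT1, the adaptor that binds the HEG1 tail and the small GTPase RAP1, had 4.97, 5.24 and 6.61 CPM in NC and 6.06, 5.23 and 4.46 CPM in si-GLMP. The groups overlapped, and the log2FC was -0.10 ± 0.16 (SE). KRIT1 (chromosome 7, 92198969 to 92246166) rested on 92 to 149 counts per library. Over all its annotated transcripts 41.0% of its exon bases also belong to AC000120.3, a gene on the same strand that is listed at 0 in each library, so the level of KRIT1 is uncertain.

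CCM2, the scaffold that joins KRIT1 to PDCD10 and to MAP3K3, was slightly higher in si-GLMP. Its level was 57.1, 56.2 and 52.3 CPM in NC, and 66.6, 57.8 and 70.1 CPM in si-GLMP. The groups did not overlap, but si-GLMP replicate 2 was only just above NC replicate 1. The log2FC was 0.23 ± 0.08 (SE), from a mean of 55.2 ± 2.56 to 64.9 ± 6.35 CPM (SD, n = 3 each). CCM2 lies on chromosome 7 from 44999475 to 45076469.

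PDCD10, which links the complex to the germinal centre kinases, did not separate the groups. It had 51.8, 55.7 and 49.7 CPM in NC and 46.2, 57.9 and 50.2 CPM in si-GLMP, so that the highest and the lowest value were both si-GLMP libraries. The log2FC was -0.03 ± 0.08 (SE). PDCD10 lies on chromosome 3, as HEG1 does, but from 167683298 to 167734939.

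MAP3K3 (MEKK3), the kinase that CCM2 binds and holds back, also overlapped between the groups. It had 189, 218 and 241 counts in the controls and 178, 212 and 223 after knockdown, a mean of 10.3 ± 0.688 and 9.83 ± 1.06 CPM, with a log2FC of -0.07 ± 0.13 (SE). KLF2, a zinc-finger factor induced by this branch, was near the lower end of what could be measured, with 34 to 51 counts per library. It had 1.91, 1.96 and 2.26 CPM in NC and 1.66, 1.93 and 1.99 CPM in si-GLMP, and its log2FC of -0.14 ± 0.24 (SE) had the widest error of the 7. KLF4, a related factor that epithelial cells also use in differentiation, was far more abundant, at 46.9, 40.8 and 45.9 CPM in NC and 43.4, 40.0 and 43.0 CPM in si-GLMP. The KLF4 groups overlapped as well, with a log2FC of -0.08 ± 0.08 (SE).

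In all, 2 of the 7 members passed the threshold of the fit over all genes, HEG1 lower and CCM2 higher, where 23.3% of all tested genes passed it. The same 2 were the members without overlap between the groups, a state that 36.5% of tested genes shared. Nothing is read from these counts, since the choice of members used this contrast. HEG1 passed in each of the 13 alternative settings run and CCM2 in 10 of 13. All settings refit the same libraries, so they show only how the calls depend on the processing and are no test of the members. CCM2 did not pass when NC replicate 3, si-GLMP replicate 1 or si-GLMP replicate 3 was left out.

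**Figure D2:**
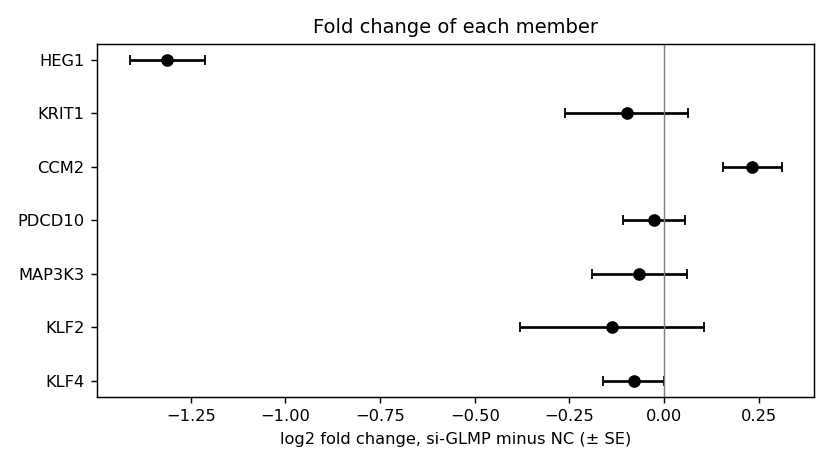
Log2 fold change (log2FC) of each member, si-GLMP minus NC (x axis), with its standard error (bars) from the fit over all genes. HEG1 lies at -1.31 and CCM2 at 0.23, and the other 5 lie between -0.14 and -0.03 with error bars that reach 0.

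Levels of different genes were compared per kilobase of exon (CPM per kb). In NC the order was PDCD10 at 21.9 ± 1.27, CCM2 at 20.7 ± 0.958, KLF4 at 15.2 ± 1.12, HEG1 at 5.50 ± 0.898, MAP3K3 at 2.12 ± 0.142, KRIT1 at 1.11 ± 0.174 and KLF2 at 1.01 ± 0.0954 CPM per kb (SD, n = 3). PDCD10 and CCM2 did not differ beyond their spread, nor did KRIT1 and KLF2, and the position of KRIT1 carries the uncertainty of its shared exons. In si-GLMP, HEG1 was at 2.21 ± 0.248 CPM per kb, next to MAP3K3 at 2.03 ± 0.219, and the ranges of these 2 overlapped. CCM2, at 24.3 ± 2.38, and PDCD10, at 21.5 ± 2.47 CPM per kb, changed places in the order but overlapped. The place of HEG1 among tested genes with a length moved from percentile 53 to percentile 36.1 of this level.

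The ratio of HEG1 to each partner per kb sets the mRNA of the receptor against that of the complex. Per unit of CCM2, HEG1 stood at 0.238, 0.310 and 0.249 in NC and at 0.100, 0.0941 and 0.0801 after knockdown. Per unit of PDCD10 it went from 0.250 ± 0.0262 to 0.105 ± 0.0227 (SD, n = 3 each). Per unit of KRIT1, the partner it binds directly, it went from 5.09 ± 1.29 to 2.15 ± 0.217. The groups did not overlap for any of these 3 ratios. The partners differed far less than HEG1, so the ratios mostly restate the HEG1 difference and are no separate result. The ratio to KRIT1 also carries the uncertainty of its shared exons.

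**Figure D3:**
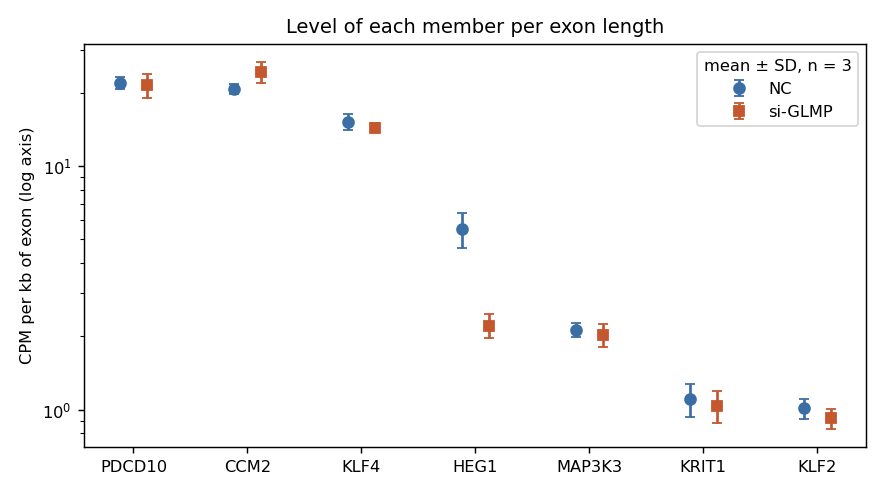
Level of each member as CPM per kilobase of exon (log axis), mean ± SD over 3 NC (circles) and 3 si-GLMP (squares) libraries, ordered by the NC mean. HEG1 moves from 5.50 down to 2.21, beside MAP3K3 at 2.03.

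Among proteins that connect HEG1 and KRIT1 to RAP1 and to adhesion, 6 of 18 tested genes passed (33.3%, against 23.3% of all tested genes). RAP1 is the small GTPase that brings KRIT1 to the membrane. Of 20 genes in this list 18 were tested, and 2 were higher, 4 lower and 12 did not pass, with a median log2FC of 0.04 (all tested genes: 0.0036). TLNRD1, an actin-bundling protein reported to bind CCM2, had 1135, 984 and 1102 counts in NC and 664, 508 and 514 in si-GLMP. It fell from 51.3 ± 4.90 to 27.1 ± 4.66 CPM, with a log2FC of -0.92 ± 0.09 (edgeR adjusted p = 4.98e-10), and the groups did not overlap. RAP1GAP, which switches RAP1 off, rose by 0.72 ± 0.08 in log2 terms (edgeR adjusted p = 1.07e-09). RAPGEF1 and RAPGEF2, exchange factors that switch RAP1 on, had -0.40 (edgeR adjusted p = 2.43e-05) and -0.38 (0.00151). The other RAPGEF genes were not called, with RAPGEF3 at -0.14 (edgeR adjusted p = 0.429), RAPGEF5 at 0.16 (0.192) and RAPGEF6 at 0.29 (0.106). SIPA1 at 0.20 (edgeR adjusted p = 0.110) and SIPA1L1 at 0.03 (0.802) were not called either. RAPGEF3, RAPGEF5, RAPGEF6, SIPA1 and SIPA1L1 were chosen after their values were seen, and RAP1 activity was not measured. ARHGAP29, a RhoA inactivator linked to RAP1, and the integrin subunit ITGB1, both chosen after their values were seen, completed the 6 called genes, at -0.21 (edgeR adjusted p = 0.0238) and 0.18 (0.0355). When NC replicate 1 or NC replicate 3 was left out, 4 genes of this list passed, and TLNRD1, RAP1GAP, RAPGEF1 and RAPGEF2 kept their calls in both refits. RAP1A and RAP1B themselves were not called, at -0.06 ± 0.08 (edgeR adjusted p = 0.694) and 0.04 ± 0.08 (0.794). CDH5, the endothelial cadherin that the complex supports at junctions, was present at 4.32 ± 0.993 in NC and 4.86 ± 0.611 CPM after knockdown (edgeR adjusted p = 0.546).

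PDCD10 binds the germinal centre kinases STK24, STK25 and STK26 and, through the striatins, the STRIPAK phosphatase assembly. Of 18 genes here 17 were tested, with 2 higher, 4 lower and 11 short of the threshold (median 0.04). The share called was 35.3%, against 23.3% of all tested genes. STRIP2, a scaffold of the assembly, rose from 33.5 ± 1.93 to 47.8 ± 2.19 CPM (log2FC 0.51 ± 0.08, edgeR adjusted p = 2.08e-06), and PPP2R1A, the phosphatase scaffold, rose by 0.23 (0.00478). The striatin STRN fell from 74.8 ± 3.25 to 57.8 ± 4.62 CPM (log2FC -0.37 ± 0.08, edgeR adjusted p = 0.000131). STK24 had -0.28 ± 0.07 (edgeR adjusted p = 0.00133) and STK25 -0.23 ± 0.07 (0.00704), while STK26 was not called, at -0.07 ± 0.07 (0.521). The exons of STK24 and STK25 overlap those of FARP1 and FARP2 on the opposite strand, by 63.2% and 14.4% of their exon bases, and the strand setting of the counting is not given, so both values are uncertain.

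Below MAP3K3, the kinase MAP2K5 was lower and MAPK7 was not called. MAP2K5 (MEK5), the activator of ERK5, had 160, 167 and 192 counts in NC and 110, 106 and 101 in si-GLMP. Its level fell from 8.24 ± 0.251 to 5.09 ± 0.254 CPM, with a log2FC of -0.70 ± 0.15 (edgeR adjusted p = 0.000208). MAPK7 (ERK5) was at 26.9 ± 0.993 and 27.5 ± 2.31 CPM (log2FC 0.03 ± 0.09, edgeR adjusted p = 0.836). All 13 genes of the list, which also holds MEF2 factors and proteins that share the PB1 interaction domain, were tested. In it 2 were higher, 3 lower and 8 short of the threshold (median 0.03), so 38.5% were called, against 23.3% of all tested genes. SQSTM1 (p62), which binds MAP3K3, rose by 0.49 ± 0.06 (edgeR adjusted p = 3.45e-08), and 20.7% of its exon bases overlap MRNIP on the opposite strand. The atypical protein kinase C gene PRKCI had -0.27 (edgeR adjusted p = 0.00432) and MAP3K2, the closest relative of MAP3K3, -0.26 (0.00654). The MAP3K2 call was lost without NC replicate 3 (edgeR adjusted p = 0.0644), si-GLMP replicate 1 (0.0506) or si-GLMP replicate 3 (0.0655). Leaving out si-GLMP replicate 1 left the list with 3 called genes in place of 5.

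Genes known as targets of KLF2 and KLF4 in endothelium were in good part at or near 0 here. Of 19 genes 9 could be tested, and ADAMTS5, WNT9B, VCAM1 and SELE had 0 counts in each library. Of the 9 tested, 3 were higher, 2 lower and 4 did not pass (median 0.13), so 55.6% were called, against 23.3% of all tested genes. The list was not split by whether KLF2 and KLF4 induce or repress a gene, so its median carries no direction. NOS3, the endothelial nitric oxide synthase (chosen after its values were seen), rose from 1.34 ± 0.0819 to 2.99 ± 0.925 CPM, on 25 to 81 counts per library (log2FC 1.16 ± 0.25, edgeR adjusted p = 0.000312). ASS1, which feeds arginine to that enzyme, rose by 0.72 ± 0.09 (edgeR adjusted p = 2.82e-09) and CDKN1A, which stops the cell cycle, by 0.78 ± 0.08 (1.40e-11). THBS1, the matrix protein thrombospondin, had -0.51 ± 0.07 (edgeR adjusted p = 2.95e-08) and the caveolar coat protein CAV1 -0.55 ± 0.06 (8.11e-10). THBD, the thrombin receptor that KLF2 is best known to induce, was abundant and did not pass, at 141 ± 7.28 and 155 ± 12.4 CPM (edgeR adjusted p = 0.174). Also not called were ADAMTS1 at -0.73 (edgeR adjusted p = 0.0795), PLAT at 0.26 (0.264) and EDN1 at -0.19 (0.598). S1PR1 was too low to be tested, with 5, 8 and 14 counts in NC and 2, 2 and 2 in si-GLMP. THBD, ADAMTS1, PLAT, EDN1 and S1PR1 were chosen after their values were seen.

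Of the other Kruppel-like factors 27.3% of the tested genes passed, close to the 23.3% of all tested genes. Of 15 genes 11 were tested, with 1 higher, 2 lower and 8 short of the threshold (median 0.06). KLF12 had -0.48 ± 0.12 (edgeR adjusted p = 0.00267), KLF7 -0.32 ± 0.08 (0.00277) and KLF6 0.28 ± 0.09 (0.0130), and KLF5, an abundant epithelial member of the family, was not called at 0.20 ± 0.08 (0.0599). KLF7 no longer passed when si-GLMP replicate 3 was left out (edgeR adjusted p = 0.103), and that of KLF6 without NC replicate 1 (0.0653) or si-GLMP replicate 2 (0.133). KLF5 passed with upper-quartile scaling (edgeR adjusted p = 0.0385), with no filter on low counts (0.0393), and without NC replicate 2 (0.00231) or si-GLMP replicate 1 (0.00865).

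On the RhoA side, all 26 genes of the list were tested, with 4 higher, 6 lower and 16 short of the threshold (median -0.04). The share called was 38.5%, against 23.3% of all tested genes. RHOA itself was not called, at 356 ± 13.2 and 326 ± 12.3 CPM (log2FC -0.12 ± 0.06, edgeR adjusted p = 0.161). The RHOA groups did not overlap, being lower in si-GLMP, a state without overlap that 36.5% of tested genes shared. The margin was slight, with 340.5 CPM in NC replicate 3 and 340.15 CPM in si-GLMP replicate 1. Of the RHOA exon bases, 8.29% overlap TCTA on the opposite strand. Below ROCK, LIMK1, the kinase that inactivates cofilin, fell from 90.6 ± 2.46 to 41.7 ± 5.82 CPM (log2FC -1.12 ± 0.08, edgeR adjusted p = 2.37e-16). MYL9, a regulatory light chain of myosin, fell from 18.2 ± 3.03 to 8.96 ± 1.45 CPM (log2FC -1.02 ± 0.13, edgeR adjusted p = 8.45e-09). Their relatives LIMK2 at 0.17 (edgeR adjusted p = 0.0837), MYL12A at -0.10 (0.305) and MYL12B at -0.01 (0.926) were not called. Neither were CFL1 at -0.03 (edgeR adjusted p = 0.787), PPP1R12A at -0.14 (0.176) and ROCK1 at -0.05 (0.746), while ROCK2 had -0.21 (0.0266). LIMK2, MYL12A, MYL12B, CFL1, PPP1R12A, ROCK1 and ROCK2 were chosen after their values were seen. Of the close relatives of RHOA, RHOB had -0.38 (edgeR adjusted p = 5.20e-05) and RHOC, chosen after its values were seen, 0.33 (0.00043). Of the ubiquitin ligases, SMURF2 had -0.37 (edgeR adjusted p = 0.0001) and SMURF1, which CCM2 is known to bring to RhoA, 0.27 (0.00171; chosen after its values were seen). The remaining called genes were ARHGEF1 at -0.27 (edgeR adjusted p = 0.00433), ARHGEF2 at 0.21 (0.0173) and ARHGDIA at 0.21 (0.0143). ARHGEF11 at 0.01 (edgeR adjusted p = 0.947), ARHGEF12 at -0.07 (0.481) and ECT2 at -0.13 (0.193) were not called. These ARHGEF genes, ARHGDIA and ECT2 were also chosen after their values were seen. Without NC replicate 1 this list had 6 called genes in place of 10.

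HEG1 is built as a membrane mucin. Of 15 other such genes 9 were tested, and 3 were higher, 1 lower and 5 did not pass (median 0.20). The share called was 44.4%, against 23.3% of all tested genes. The lower gene was PODXL, the sialomucin podocalyxin, with 2077, 2244 and 2121 counts in NC and 1098, 959 and 1027 in si-GLMP. It fell from 103 ± 7.95 to 49.5 ± 4.22 CPM (log2FC -1.05 ± 0.08, edgeR adjusted p = 2.01e-16). CD164, another sialomucin, rose by 0.45 (edgeR adjusted p = 6.41e-07), MUC20 by 1.04 (1.57e-06) and MUC1 by 0.59 (0.00603). MUC20 shares 42.8% of its exon bases with MUC20-OT1 on the same strand, and MUC1 no longer passed when si-GLMP replicate 3 was left out (edgeR adjusted p = 0.134). Over the 7 pathway lists together, 39 of 103 tested genes passed (37.9%, against 23.3% of all tested genes), 17 higher and 22 lower. The lists were chosen with earlier results of these data known, so this share and those of the single lists are a description. No enrichment is read from them.

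**Figure D4:**
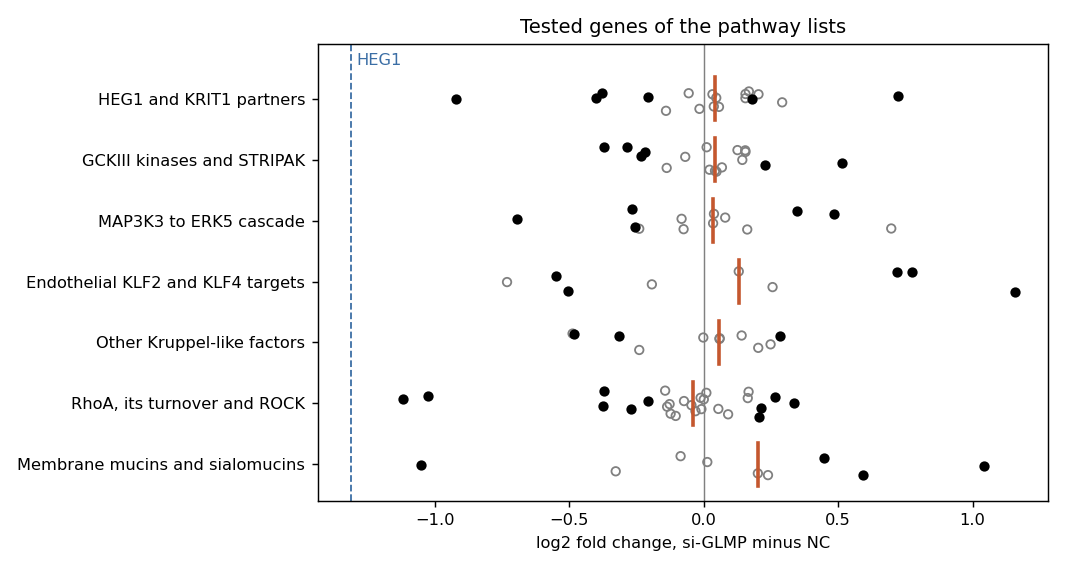
Log2 fold change, si-GLMP minus NC (x axis), of each tested gene in the 7 pathway lists (rows). Filled points passed an edgeR adjusted p of 0.05, open points did not, red bars are list medians, and the dashed line marks HEG1 at -1.31. Each list has called genes on both sides of 0, and no gene lies as far to the left as HEG1.

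The nearest tested genes on either side of HEG1 did not pass the test. For each member, genes that were not tested were passed over in the search for neighbours. ITGB5, an integrin subunit gene 64291 bases from HEG1, had -0.00 ± 0.07 on the log2 scale (edgeR adjusted p = 0.987), with 119 ± 1.12 in NC and 119 ± 3.90 CPM in si-GLMP. SLC12A8, a transporter gene 26677 bases away on the other side, had 0.12 ± 0.09 (edgeR adjusted p = 0.358). ANKIB1 starts 68 bases from KRIT1 on the opposite strand, and it rose by 0.20 ± 0.07 (edgeR adjusted p = 0.0327), a call lost in 5 of 13 alternative settings. Of the 14 neighbours of the 7 members 1 was higher, ANKIB1, and 1 lower, GOLIM4, which lies 273737 bases from PDCD10 and had -0.35 ± 0.08 (edgeR adjusted p = 0.000313). The other 12, with log2FCs from -0.18 (CYP51A1 beside KRIT1) to 0.37 (LINC01322 beside PDCD10), were not past the threshold. Of all tested genes, 23.3% passed it.

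Over the 6 libraries, the pattern nearest to that of HEG1 was that of NET1. Likeness was measured as the root mean square difference of log2 CPM, each gene centred on its own mean, so that 0 would be an identical pattern. It was 0.0872 for NET1, an exchange factor of RhoA, 0.114 for the scaffold PDZK1, 0.1196 for the Notch ligand DLL1, 0.139 for the ceramide synthase CERS2 and 0.142 for UXS1, which makes UDP-xylose. NET1 had 5235, 5954 and 5790 counts in NC and 2558, 2323 and 2126 in si-GLMP, a log2FC of -1.26, and NC replicate 2 was its highest library, as it was for HEG1. The other 4 had log2FCs between -1.33 and -1.13. These genes were picked for their likeness in the same contrast, so no test is given. PDZK1 has close copies in the genome and CERS2 shares 20.4% of its exon bases with SETDB1 on the opposite strand, so both are uncertain.

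**Figure D5:**
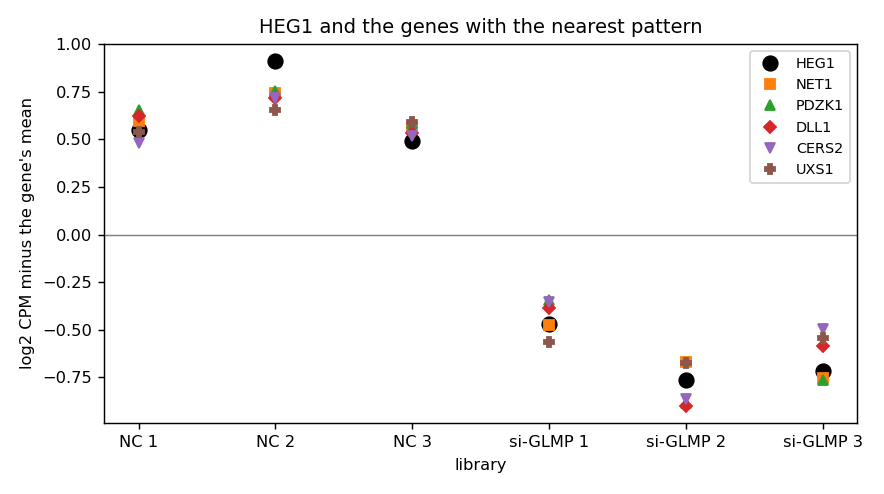
Log2 CPM minus each gene's mean (y axis) in the 6 libraries (x axis) for HEG1 (large black circles) and the 5 genes with the nearest pattern. All 6 genes lie above 0 in the NC libraries and below 0 in the si-GLMP libraries, and HEG1 is the highest of them in NC replicate 2.

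Since HEG1 and the CCM proteins are best known from endothelium, and HEG1 also marks mesothelium, markers of other cell types were read beside them. Of 12 endothelial markers 7 were tested, and the list summed to between 35.7 and 42.8 CPM in NC and between 42.7 and 48.0 CPM in si-GLMP. Of the 7, ERG and EGFL7 were higher and MMRN2 was lower, and 4 did not pass (median log2FC 0.17). The share called was 42.9%, against 23.3% of all tested genes. The transcription factor ERG rose from 0.910 ± 0.0975 to 2.22 ± 0.306 CPM, on 18 to 52 counts per library (edgeR adjusted p = 0.000471). EGFL7 rose by 0.30 (edgeR adjusted p = 0.0176) and MMRN2 had -0.66 (0.00328). PECAM1 was at 0.542 ± 0.342 and 0.481 ± 0.0395 CPM, VWF at 1.51 ± 0.501 and 1.77 ± 0.215 CPM, and KDR had at most 1 count in a library. Of 7 mesothelial markers 5 were tested, with 1 lower (20%) and 4 short of the threshold (median log2FC -0.23). LRRN4, the lower one, fell from 9.12 ± 2.11 to 5.66 ± 0.801 CPM (log2FC -0.69 ± 0.15, edgeR adjusted p = 0.000488). Its groups did not overlap, as in 36.5% of tested genes. Its highest level was in NC replicate 2, as for HEG1, but also for MMRN2 and MYL9. CALB2 was at 70.6 ± 4.09 and 71.8 ± 1.51 CPM (edgeR adjusted p = 0.857) and MSLN at 42.0 ± 1.67 and 45.7 ± 1.01 CPM (0.292), and the list summed to 121 to 130 CPM in NC and 123 to 129 CPM in si-GLMP. The 10 fibroblast markers summed to between 6.61 and 8.38 CPM in NC and between 10.99 and 13.0 CPM in si-GLMP, with COL3A1 and POSTN at 0 in each library and COL1A1 higher by 0.91 (edgeR adjusted p = 1.59e-06). The 8 leukocyte markers summed to between 17.4 and 22.2 CPM in NC and between 30.2 and 34.8 CPM in si-GLMP, mostly CSF1R, while LYZ, TYROBP and MS4A1 had 0 counts and PTPRC at most 5 in a library. ERG, EGFL7, MMRN2, LRRN4, KDR, CSF1R and the markers at 0 were chosen for mention after their values were seen. The part of these markers in the HEG1 difference was not tested.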

How the data were processed

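Read counts per gene were deposited by the authors as 1 table for 3 NC and 3 si-GLMP libraries, with no normalization. The submitters' processing notes name HISAT2 and GRCh38, without a version of the aligner. The sources used here give no counting tool, annotation release or strand setting. Columns were matched to samples by title, with 0 left over.

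The members, the gene lists and the rule for named genes were chosen with earlier results of these data known. The fit used edgeR 4.0.16 (R 4.3.3): filterByExpr with a minimum count of 10 (15900 genes), TMM scaling, robust quasi-likelihood F test of group, and Benjamini-Hochberg adjustment over all tested genes at 0.05. Each standard error is the log2 fold change over the root of its F. CPM values are TMM-scaled. The floor of 3 counts was 0.133 to 0.151 CPM. The script was tested on simulated data.

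Named genes were GLMP, the 7 members, the 4 smallest adjusted p of each pathway list, 8 genes fixed by name (RHOA, RAP1A, RAP1B, MAPK7, MAP2K5, STK24, STK25 and STK26), the nearest tested neighbours, the 5 genes most like HEG1 (log2 CPM, prior count 2) and defining markers. Positions, exon lengths (basic transcripts) and neighbours are from GENCODE release 29 on GRCh38, matched by identifier (58396 of 60664). Promoters are from RefSeq. Other settings tried were DESeq2 1.42.0, limma-voom (limma 3.58.1), RLE or upper-quartile scaling, a filter of 1 CPM in 3 libraries or none, leaving out each library, and blocking on the replicate number.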

Additional observations from a re-analysis of the deposited data

How the results depend on the processing

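The number of genes past the threshold was 3712, and it lay between 3254 and 3716 under the other scalings, filters and tools, and between 2804 and 3448 with a library left out. HEG1 kept its sign in all 13 settings, with log2 fold changes from -1.41 to -1.17, and CCM2 from 0.18 to 0.31; KRIT1, PDCD10 and MAP3K3 took either sign. With a library left out, the called members numbered 1 to 2, the genes of the MAP3K3 list 3 to 6, those of the RhoA list 6 to 13 and the genome neighbours 1 to 3. With no filter on low counts 1 neighbour was called. For the 54 other named genes, 682 of 702 refits kept their side of the threshold, 12 lost the call, 8 gained it and 0 were reversed. With the replicate number as a block (replicate block) 3972 genes passed and 2 members, and among the named genes KLF5 gained a call (edgeR adjusted p = 0.0158). Same-numbered libraries did not deviate together (correlations 0.0388, 0.0263 and 0.00128), and NC replicate 3 correlated best with si-GLMP replicate 2, so the numbers were not taken as pairs. Low counts limit KLF2, at 34 to 51 counts per library, and NOS3, at 25 to 81.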
